A study of Homo sapiens with 6 samples.

Results

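The genes described here are 10 components of the microRNA pathway: DROSHA, DGCR8, XPO5, DICER1, TARBP2, AGO1, AGO2, AGO3, TNRC6A and TNRC6B. They were taken by name from a deposited table of 35035 genes. All 10 stood in the table and all 10 passed the filter on low values, which left 19350 genes tested. The libraries came from HK-2 cells, an immortalised human line labelled as proximal tubular epithelial cells. Of the 6 libraries, 3 were from cells transfected with empty-vector plasmids (genotype labelled WT) and 3 from cells transfected with plasmids that overexpress circAASS, a circular RNA named after the gene AASS. Both groups went through 24 h at 1% oxygen followed by 12 h of reoxygenation, so no library without hypoxia was analysed here and the plasmid is the labelled difference between the groups. The series text dates the profiling to 24 h after the treatment, whereas the sample labels, which are followed here, give 12 h of reoxygenation. All libraries are from 1 cell line, and no label says that the repeats were separate cultures. A p-value here therefore reflects variation among these libraries alone, which may be technical.

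MicroRNAs are short RNAs that guide Argonaute proteins to messenger RNAs and lower their translation and stability. In the nucleus, the RNase III enzyme DROSHA and its RNA-binding partner DGCR8, together called the Microprocessor, crop a hairpin out of a primary transcript. Exportin 5 (XPO5) carries the hairpin to the cytoplasm, where DICER1, with its partner TARBP2, cuts out the duplex. An Argonaute protein (AGO1 to AGO4) takes up a strand and binds a GW182 scaffold protein (TNRC6A, TNRC6B or TNRC6C), which recruits deadenylases. AGO2 is known as the Argonaute that can slice a fully matched target. The Microprocessor is known to regulate DGCR8, since it cuts hairpins within the DGCR8 messenger RNA itself.

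The hairpins that lie within the genes themselves are shown first, because they tie the pathway's substrate to the transcripts measured here. RefSeq (GRCh38.p14) places 5 mature microRNAs on the same strand within 2 of the genes. AGO2 was left out of this search. In each sequence the capitals mark the seed, bases 2 to 8, and no seed was shared. miR-3618 lies in an untranslated exon of DGCR8 (chr22:20085797-20085818, plus strand), miR-1306-5p and miR-1306-3p in its coding sequence (chr22:20086072-20086093 and chr22:20086112-20086129), and both arms of miR-3173 in an intron of DICER1 (chr14:95137961-95137982 and chr14:95137923-95137944, minus strand).
hsa-miR-3618: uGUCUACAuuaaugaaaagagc
hsa-miR-1306-5p: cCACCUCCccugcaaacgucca
hsa-miR-1306-3p: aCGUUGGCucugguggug
hsa-miR-3173-5p: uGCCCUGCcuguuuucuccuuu
hsa-miR-3173-3p: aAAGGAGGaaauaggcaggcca
Mature microRNAs were not measured in these libraries, so every value below is the level of a messenger RNA and not of a microRNA or a protein.

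DICER1 was the gene of this set that differed most clearly, at 0.713 times its empty-vector level in mean deposited RPKM and 0.753 times in the fit on scaled RPKM. DROSHA was lower by a smaller amount, and the other 8 genes did not pass the test. DICER1 fell by 0.41 on the log2 scale (SE 0.07, adjusted p = 0.00559) and DROSHA by 0.15 (SE 0.05, adjusted p = 0.0415), both by limma with Benjamini-Hochberg adjustment over all tested genes. None of the 10 was called higher in this fit, though 5 had a positive fitted change. These 2 of 10 genes (20%) compare with 32.3% of all 19350 tested genes called in either direction. Both were lower, and 16.3% of all tested genes were called lower. The 20% thus lay below the first share and above the second. A set of 10 genes is too small to tell it from the table as a whole by these shares. Without empty-vector library 2, 20.3% of all tested genes were called, and DICER1 alone of the 10. The median log2 fold change over the 10 genes was 0.01, against -0.01 over all tested genes. Their median size of change was 0.14 against 0.23, and 8 of the 10 had a fitted change smaller than that median. Of the 19350 genes behind the 0.23, 13342 had a mean of at least 1 RPKM, as did all of the set but AGO3. No median was taken over genes of like level. In bulk RNA, fewer cells of a kind and less RNA per cell cannot be told apart.

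**Figure D1:**
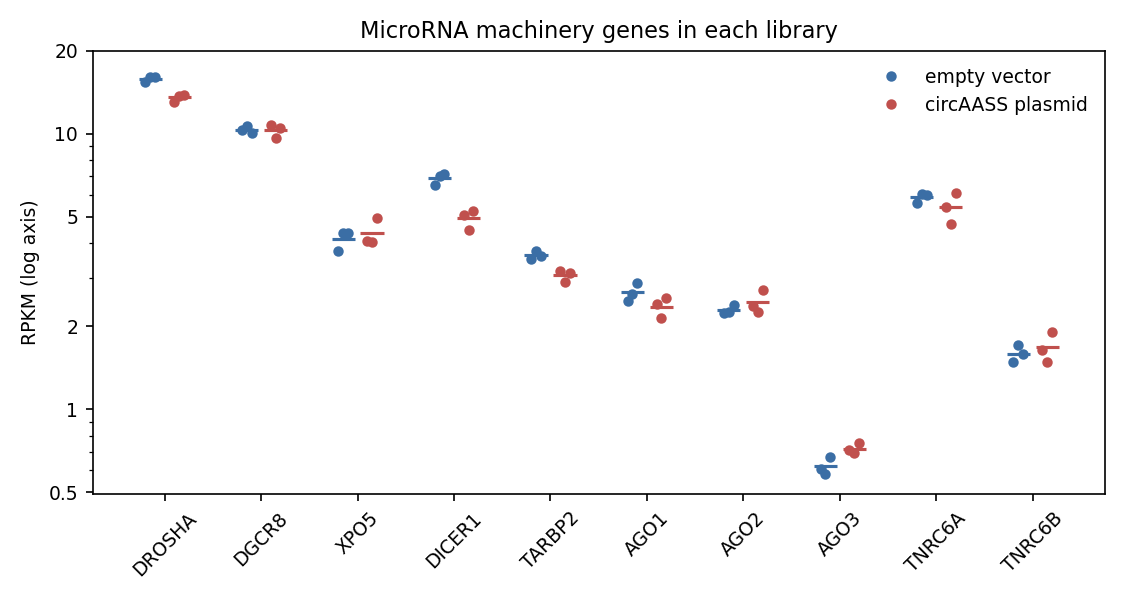
Level of each of the 10 genes in RPKM, reads scaled to gene length and library size (log axis), with points for single libraries (3 of each group) and lines at the group means. The groups are apart for DROSHA, DICER1, TARBP2 and AGO3 and overlap for the other 6 genes.

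Levels are given as RPKM, reads scaled to exon length and library size, so that they can be compared between genes as well as between libraries. Such a level divides by all annotated exon bases, from 4090 for TARBP2 to 21157 for AGO3, and is lower where long exons are annotated but little used. From the highest mean to the lowest the order was DROSHA, DGCR8, DICER1, TNRC6A, XPO5, TARBP2, AGO1, AGO2, TNRC6B and AGO3. DROSHA lay at the 85.3rd percentile of the tested genes by level, DICER1 at the 69.8th and AGO3 at the 24.5th. DICER1 and TNRC6A were not separated in this order, since each was the higher one in 3 of 6 libraries, and AGO1 exceeded AGO2 in 4 of 6. TNRC6A exceeded XPO5 in 6 of 6 libraries, but their ranges over the libraries overlapped. All other neighbours in the order had ranges that did not overlap.

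The nuclear step was measured through DROSHA and DGCR8. DROSHA (chromosome 5, 31400497 to 31532196, minus strand, GRCh38), the enzyme that makes the cut, stood at 15.4, 16.0 and 16.0 RPKM for empty vector and at 13.0, 13.7 and 13.9 RPKM in the circAASS libraries. All 3 circAASS libraries were below all 3 empty-vector libraries. The group means were 15.8 ± 0.362 and 13.6 ± 0.453 RPKM (SD, n = 3 each), from 4864 to 6538 reads a library. The 95% interval of the log2 fold change ran from -0.26 to -0.04. The call was close to the threshold: it was lost when any 1 of the 6 libraries was left out, with limma adjusted p from 0.0541 to 0.137, and under 3 of the 9 other alternatives. The direction was the same in all 15.

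DGCR8 (chromosome 22, 20080232 to 20111877, plus strand), the partner that grips the hairpin, stood at 10.3, 10.6 and 10.1 RPKM for empty vector and at 10.8, 9.65 and 10.5 RPKM in the circAASS libraries. The groups overlapped, and the means were 10.3 ± 0.282 and 10.3 ± 0.596 RPKM. The log2 fold change was 0.07 (95% interval -0.08 to 0.21, limma adjusted p = 0.444) and turned to -0.0055 when libraries were scaled by their size only. Of the exon bases of DGCR8, 9.58% are shared with other genes, 7.22% with genes on the opposite strand (TRMT2A and AC006547.2), and whether reads were assigned by strand is not known here. The level of DROSHA divided by that of DGCR8, which does not depend on the scaling of libraries, was 1.49, 1.51 and 1.59 in the empty-vector libraries and 1.21, 1.43 and 1.32 in the circAASS libraries. This ratio was lower in all 3 circAASS libraries than in any empty-vector library. For this and the ratios and shares below, no test was made, and how often those of other genes separate was not counted. Of single tested genes, 47.5% had deposited RPKM that did not overlap between the groups.

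For export, XPO5 (chromosome 6, 43522330 to 43576075, minus strand) stood at 3.75, 4.36 and 4.36 RPKM for empty vector and at 4.08, 4.03 and 4.94 RPKM in the circAASS libraries. Its groups overlapped. Exons of POLR1C on the opposite strand share 4.08% of its exon bases. The log2 fold change of 0.13 did not pass (95% interval -0.09 to 0.35, limma adjusted p = 0.313).

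The largest fitted change of the 10 genes was at the cytoplasmic cut. DICER1 (chromosome 14, 95086228 to 95158010, minus strand) stood at 6.54, 7.05 and 7.14 RPKM with empty vector, from 3631, 4421 and 4606 reads. In the circAASS libraries the levels were 5.05, 4.49 and 5.25 RPKM, from 2978, 3211 and 3058 reads. The groups were well apart: the highest circAASS library was below the lowest empty-vector library. The means were 6.91 ± 0.323 and 4.93 ± 0.394 RPKM, a difference of -28.7% on the deposited scale. The 95% interval of the log2 fold change ran from -0.58 to -0.24. DICER1 passed under all 15 alternatives, with log2 fold changes from -0.48 to -0.35 and limma adjusted p up to 0.0276. By size of change it stood at the 73.1st percentile of all tested genes, so many genes differed by more.

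TARBP2 (chromosome 12, 53500921 to 53506431, plus strand), the double-stranded RNA binding partner of DICER1, stood at 3.51, 3.74 and 3.61 RPKM for empty vector and at 3.19, 2.90 and 3.122 RPKM in the circAASS libraries. Its groups did not overlap either, but the log2 fold change of -0.16 did not pass (95% interval -0.33 to 0.01, limma adjusted p = 0.125). When libraries were scaled by their size only, TARBP2 passed at a log2 fold change of -0.23 (limma adjusted p = 0.0452), and it did so under none of the other 14 alternatives. DICER1 divided by TARBP2 was 1.86, 1.88 and 1.98 in the empty-vector libraries and 1.59, 1.55 and 1.68 in the circAASS libraries, without overlap. PRKRA, another double-stranded RNA binding partner of DICER1, stood at 3.91 ± 0.699 and 4.02 ± 0.429 RPKM (limma adjusted p = 0.542, chosen after its value was seen). Counting the deposited RPKM, 4 of the 10 genes had groups that did not overlap (DICER1, DROSHA and TARBP2 below, AGO3 above), against 47.5% of all tested genes. The 3 that lay below compare with 30.3% of all tested genes. On the scaled RPKM that the test used, AGO2 also lay above, so 5 of the 10 did not overlap, against 47.9% of all tested genes.

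**Figure D2:**
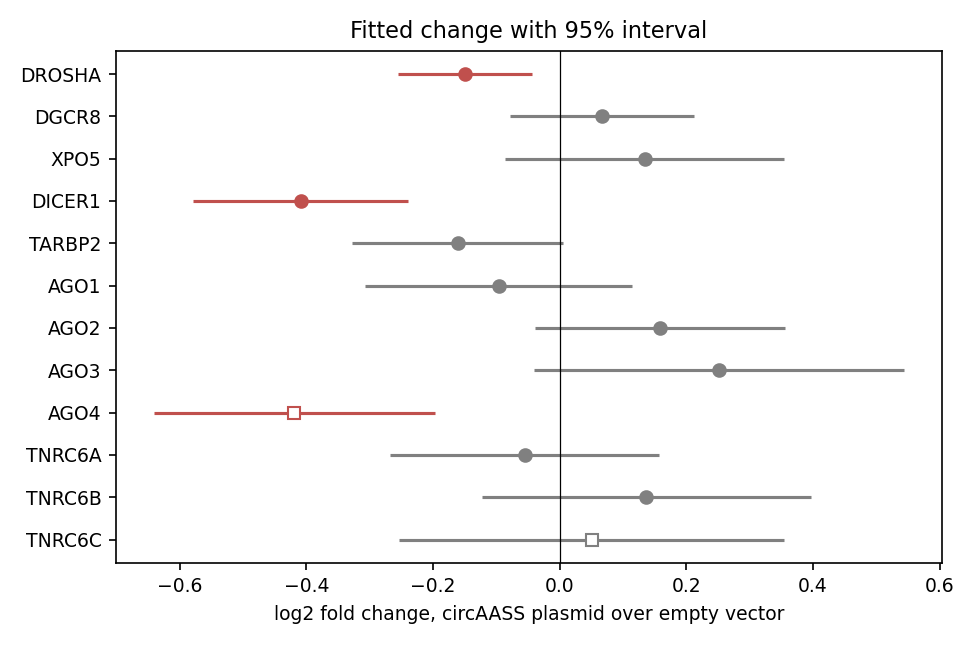
Fitted log2 fold change (horizontal axis, circAASS plasmid over empty vector) with its 95% interval for the 10 genes (filled circles) and their paralogs AGO4 and TNRC6C (open squares). Red marks an adjusted p under 0.05, reached by DROSHA, DICER1 and AGO4; the other intervals include 0.

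The stretches before the starts of DICER1 and DROSHA, the 2 genes that fell, are printed because these genes are the ones the comparison turns on. Both are from RefSeq (GRCh38.p14), read 5′ to 3′ along the gene, without any exon of the gene itself. Capitals mark CCAAT or its reverse complement ATTGG. The DICER1 stretch is chr14:95157530-95157779 (minus strand, before a start at 95157529, one of 5 listed), and the DROSHA stretch is chr5:31532197-31532343 (minus strand, before a start at 31532093).
DICER1: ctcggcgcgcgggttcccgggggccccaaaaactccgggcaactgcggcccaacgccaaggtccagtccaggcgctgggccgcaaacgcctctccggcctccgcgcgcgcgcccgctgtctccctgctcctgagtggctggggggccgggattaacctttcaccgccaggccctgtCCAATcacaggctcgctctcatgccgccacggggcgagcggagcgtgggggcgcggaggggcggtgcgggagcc
DROSHA: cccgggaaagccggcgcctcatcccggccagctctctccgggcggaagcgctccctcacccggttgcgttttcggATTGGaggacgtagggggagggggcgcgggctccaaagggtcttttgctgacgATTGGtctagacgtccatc
The DICER1 stretch holds 1 match and the DROSHA stretch 2. Windows of 250 bases before a start were taken for 9 of the 10 genes, AGO2 being left out, and were 15 in all. Of these 15 windows 9 hold CCAAT on either strand, against 32.0% of 35116 such windows of all genes. GGGCGG was in 11 of the 15 windows (42.6% of all windows). The core letters known from hypoxia response elements were looked for on both strands in the same windows. ACGTG was in 0 of the 15 windows (18.5% of all windows) and GCGTG in 7 (32.2%). CACGTG, which contains ACGTG, was in 0 (6.34%). Such matches describe these letters only.

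None of the Argonaute genes of the set passed the test, while the shares of AGO2, AGO3 and their relative AGO4 in the summed Argonaute level did not overlap between the groups. AGO1 (chromosome 1, 35869808 to 35930528, plus strand) stood at 2.48, 2.62 and 2.88 RPKM for empty vector and at 2.41, 2.15 and 2.53 RPKM in the circAASS libraries. AGO2 (chromosome 8, 140520156 to 140635619, minus strand), the slicing Argonaute, stood at 2.23, 2.25 and 2.38 RPKM and at 2.37, 2.26 and 2.70 RPKM. The groups of both genes overlapped on this deposited scale. After the scaling used in the test, AGO2 was at 2.19, 2.20 and 2.30 against 2.48, 2.32 and 2.71 RPKM, with all circAASS libraries above, and AGO1 still overlapped. Neither gene passed: the log2 fold changes were -0.10 for AGO1 (95% interval -0.31 to 0.11, limma adjusted p = 0.45) and 0.16 for AGO2 (-0.04 to 0.36, limma adjusted p = 0.193).

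AGO3 (chromosome 1, 35930718 to 36072500, plus strand) was the least abundant of the set. It stood at 0.606, 0.582 and 0.674 RPKM for empty vector and at 0.713, 0.691 and 0.756 RPKM in the circAASS libraries, so the circAASS libraries were above the empty-vector libraries without overlap. The log2 fold change of 0.25 did not pass (SE 0.13, 95% interval -0.04 to 0.54, limma adjusted p = 0.164). It passed under 2 of 14 alternatives, without trend and robust estimation (limma adjusted p = 0.0432) and with voom on recovered reads (limma adjusted p = 0.013). The alternative that required an average of 1 RPKM left AGO3 out.

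The remaining Argonaute, AGO4, is not among the 10 genes but completes the family. It lies upstream of AGO1 and AGO3 on the same strand of chromosome 1 (35808172 to 35857890), 11917 bases from AGO1, and 189 bases separate AGO1 from AGO3. AGO4 stood at 2.82, 2.79 and 3.18 RPKM for empty vector and at 2.02, 2.24 and 1.91 RPKM in the circAASS libraries. It fell by 0.42 on the log2 scale (SE 0.10, limma adjusted p = 0.0142), about as much as DICER1, and its groups did not overlap. The call was lost without empty-vector library 3 (limma adjusted p = 0.055) and held under the other 14 alternatives. The 3 neighbouring genes thus had fitted changes of -0.42, -0.10 and 0.25, of which that of AGO4 alone passed.

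Within each library, the 4 Argonaute levels were also taken as shares of their sum, which removes any scaling between libraries. The share of AGO4 was 34.7%, 33.8% and 34.9% in the empty-vector libraries and 26.9%, 30.6% and 24.2% in the circAASS libraries. The share of AGO2 was 27.4%, 27.3% and 26.1% and then 31.6%, 30.8% and 34.2%. The share of AGO3 was 7.45%, 7.06% and 7.39% and then 9.49%, 9.43% and 9.58%. In these 3 genes the groups did not overlap, with AGO4 lower and AGO2 and AGO3 higher, while the shares of AGO1 overlapped (31.3% ± 0.69 and 31.1% ± 1.59). AGO4 had the largest mean share in the empty-vector libraries and AGO2 the largest in the circAASS libraries. The order in single circAASS libraries was less clear. In library 1 the share of AGO1 (32.0%) exceeded that of AGO2 (31.6%), and in library 2 AGO2 (30.8%) was close to AGO4 (30.6%). Summed over the 4 genes, the level was 8.498 ± 0.537 RPKM for empty vector and 7.58 ± 0.287 RPKM in the circAASS libraries. Shares add up to 100%, so a lower share of one gene raises those of the others, and no test was made of them.

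**Figure D3:**
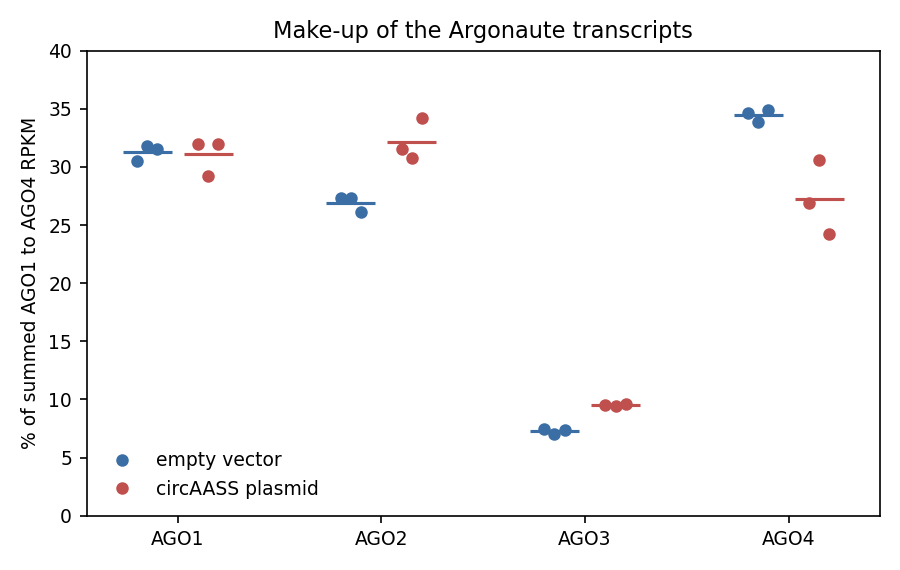
Share of each Argonaute gene in the summed RPKM of AGO1 to AGO4 (vertical axis, %), for each of the 3 empty-vector and 3 circAASS libraries, with lines at the group means. AGO4 went from a mean of 34.5% to 27.2%, AGO2 from 26.9% to 32.2% and AGO3 from 7.30% to 9.50%.

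The GW182 scaffolds did not pass the test. TNRC6A (chromosome 16, 24610209 to 24827632, plus strand) stood at 5.62, 6.06 and 5.997 RPKM for empty vector and at 5.44, 4.70 and 6.10 RPKM in the circAASS libraries. TNRC6B (chromosome 22, 40044817 to 40335808, plus strand) stood at 1.48, 1.71 and 1.59 RPKM and at 1.65, 1.48 and 1.91 RPKM. In both genes circAASS library 3 was the highest of the 6, and circAASS library 2 the lowest (in TNRC6B level with empty-vector library 1), so the groups overlapped. The log2 fold change was -0.06 for TNRC6A (95% interval -0.27 to 0.16, limma adjusted p = 0.674) and 0.14 for TNRC6B (-0.12 to 0.40, limma adjusted p = 0.383). That of TNRC6A turned to 0.038 without circAASS library 2. The ratio of TNRC6A to TNRC6B was 3.79, 3.55 and 3.78 in the empty-vector libraries and 3.30, 3.17 and 3.19 in the circAASS libraries. These did not overlap, and the ratio was not tested. The paralog TNRC6C, with 12.9% of its exon bases shared with an antisense gene, stood at 1.38 ± 0.114 and 1.37 ± 0.198 RPKM (limma adjusted p = 0.795).

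**Figure D4:**
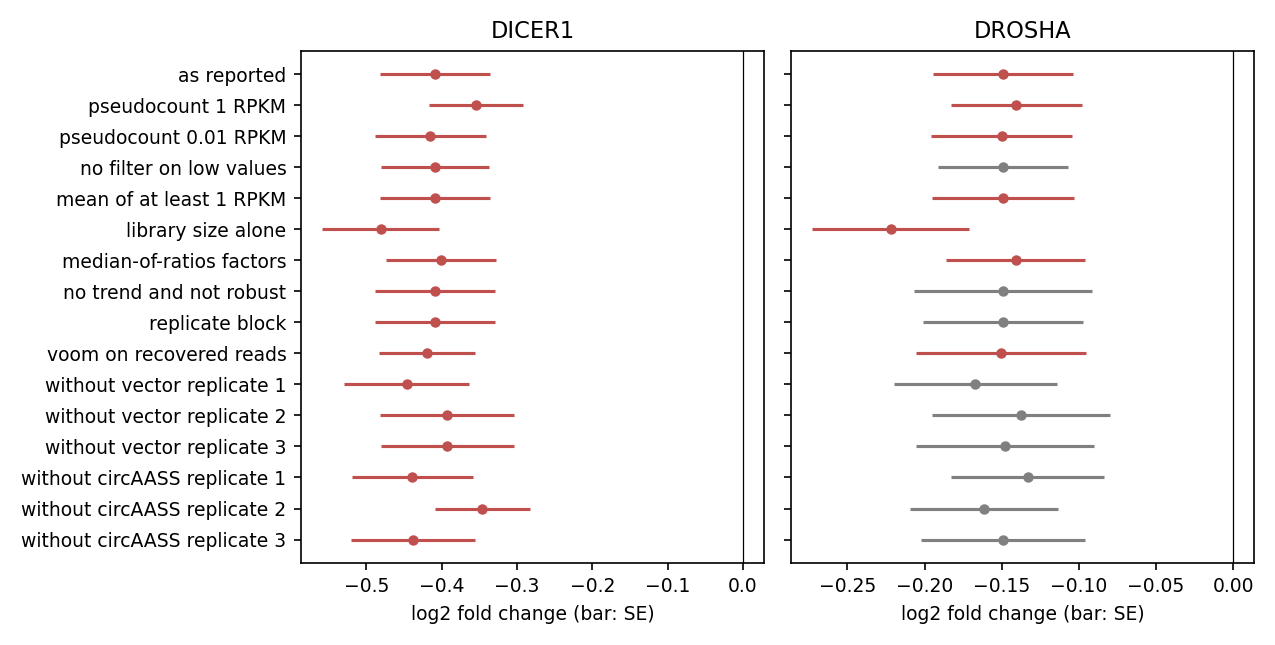
Log2 fold change of DICER1 and DROSHA (horizontal axes, each with its own scale) as reported and under the 15 alternatives, with bars of 1 SE. Red marks an adjusted p under 0.05: DICER1 was called in every fit, DROSHA in the reported fit and 6 of the 15 alternatives.

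Other genes of the pathway were taken from 2 lists. The cofactor list covers processing partners, the chaperones that load Argonaute, and enzymes that trim, tail or degrade microRNAs and their precursors. Of its 49 genes 47 were tested: 13 were higher, 6 lower and 28 did not pass. The shares called higher and lower were 27.7% and 12.8%, against 16% and 16.3% of all tested genes, and the median log2 fold change was 0.10. The background depends on level. With a mean of at least 1 RPKM required, 22.1% of all genes were higher and 17.9% lower, and the list had 14 higher and 7 lower. The balance over all genes rested on the scaling factors: with library size alone 11.2% of all tested genes were higher and 20.8% lower, and the list had 12 higher and 9 lower. By the naming rule, the genes with the smallest p among those higher were FXR2, SAFB2, SRRT and STIP1. SRRT (ARS2), which links the cap-binding complex to primary microRNA processing, rose from 117 ± 4.27 to 161 ± 8.60 RPKM. SAFB2, a nuclear protein that assists the Microprocessor at some hairpins, rose from 74.1 ± 4.68 to 108 ± 5.46 RPKM, a log2 fold change of 0.61. FXR2, a relative of the fragile X protein, rose from 8.98 ± 0.399 to 12.2 ± 0.376 RPKM, and the co-chaperone STIP1 from 45.9 ± 0.950 to 56.3 ± 2.85 RPKM. These 4 passed in the reported fit and all 15 alternatives. The number of lower cofactors, 6 as reported, was also smaller in other fits that called fewer genes in total. It was 3 with no filter on low values, where 12.6% of all genes were called in place of 32.3%. It was 3 without empty-vector library 2, 2 without empty-vector library 3 and 3 without circAASS library 2. Of all genes, 9.93%, 10.8% and 13.0% were lower in these fits, in that order.

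Among the cofactors that were lower, those with the smallest p were IPO8, PARN, AGO4 and MOV10. The importin IPO8, which binds Argonaute proteins, fell from 18.9 ± 0.274 to 14.3 ± 0.620 RPKM. PARN, a ribonuclease that trims poly(A) and some small RNAs, fell from 9.77 ± 0.281 to 7.48 ± 0.470 RPKM. MOV10, a helicase found with Argonaute, fell from 5.28 ± 0.180 to 4.14 ± 0.403 RPKM (limma adjusted p = 0.0264), a call that was lost under 6 of the 15 alternatives, 5 of them leaving out 1 library each (adjusted p up to 0.087). IPO8 and PARN passed throughout. RAN, which powers export by XPO5, stood at 56.5 ± 1.16 and 54.2 ± 3.46 RPKM (limma adjusted p = 0.876, chosen after its value was seen).

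The second list holds the factors that act after Argonaute and GW182, that is the CCR4-NOT and PAN2-PAN3 deadenylases, decapping and decay. All 41 genes were tested: 13 were higher, 6 lower and 22 did not pass. The shares called higher and lower were 31.7% and 14.6%, against 16% and 16.3% of all tested genes. The median log2 fold change was 0.02. With a mean of at least 1 RPKM required, the list had 14 higher and 7 lower, and 22.1% of all genes were higher and 17.9% lower. The genes higher with the smallest p were TOB1, AJUBA, CNOT3 and TOB2. TOB1, an adaptor of the CCR4-NOT deadenylases, rose from 2.55 ± 0.188 to 5.78 ± 0.431 RPKM, a log2 fold change of 1.22, and its relative TOB2 from 8.02 ± 0.492 to 9.94 ± 0.485 RPKM. TOB1 shares 11.1% of its exon bases with an antisense gene. The CCR4-NOT subunit CNOT3 rose from 14.9 ± 0.168 to 19.3 ± 0.715 RPKM, and AJUBA, a LIM-domain protein of processing bodies, from 11.7 ± 0.430 to 17.1 ± 0.782 RPKM.

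The genes of this list that were lower with the smallest p were PAN2, LSM14B, DCP1B and XRN1. PAN2, the catalytic deadenylase that TNRC6 proteins recruit through PAN3, fell from 3.62 ± 0.320 to 1.59 ± 0.101 RPKM, a log2 fold change of -1.07 and the largest fall over both lists. PAN3 itself stood at 2.56 ± 0.0900 and 2.62 ± 0.1496 RPKM (limma adjusted p = 0.327, chosen after its value was seen). The decapping cofactor DCP1B fell from 3.57 ± 0.0575 to 2.17 ± 0.248 RPKM and the exonuclease XRN1 from 2.67 ± 0.205 to 1.90 ± 0.110 RPKM. LSM14B, an RNA-binding protein of processing bodies, fell from 22.4 ± 0.287 to 16.0 ± 0.661 RPKM. All 8 genes named from this list by the rule passed in the reported fit and all 15 alternatives. Scaled by library size only, 6 genes of the list were higher in place of 13, and 8 lower in place of 6. Over all genes, that fit called 11.2% higher in place of 16%, and 20.8% lower in place of 16.3%. The number higher was 8 with no filter on low values, where 6.48% of all genes were higher. It was 7 without any 1 of the empty-vector libraries, against 11.7%, 10.3% and 11.1% of all genes. Without circAASS library 3 it was 8, against 11.7%.

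**Figure D5:**
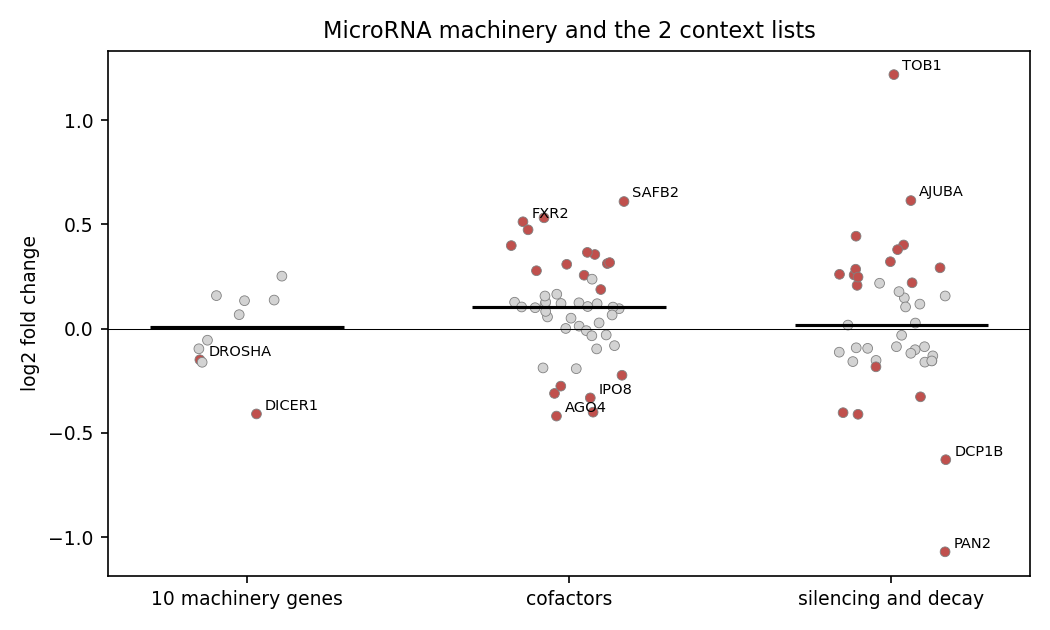
Log2 fold change (vertical axis) of the 10 machinery genes and of the tested genes of the cofactor and the silencing and decay lists, 1 point a gene, with lines at the medians of 0.01, 0.10 and 0.02. Red marks an adjusted p under 0.05; TOB1 at 1.22 and PAN2 at -1.07 lie farthest out, and the machinery genes between -0.41 and 0.25.

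Facts of the whole series bear on these values. Library totals ran from 45148425 to 58179563 reads, and no library was left out. Of 14 proximal tubule markers 5 (SLC5A2, GGT1, PAX8, CDH6 and KRT18) had a mean of at least 1 RPKM, while LRP2, CUBN, AQP1, SLC34A1, ANPEP and HNF4A were under 0.1, so these 6 defining markers of the labelled cell type were nearly absent. Of 14 markers of other cells, 11 were under 0.1 RPKM; CD68 and COL1A1 were above 1, and the list summed to 104 to 108 RPKM for empty vector and 79.8 to 102 in the circAASS libraries, nearly all of it CD68, of whose exon bases 81.7% lie in exons of AC016876.2 on the same strand. The tubule list summed to 129 to 137 and to 154 to 170 RPKM, but its markers did not move together. KRT18 rose from a mean of 79.3 to 107 RPKM and PAX8 from 25.0 to 42.3, while CDH6 fell from 13.5 to 4.89, SLC5A2 from 3.85 to 1.87 and GGT1 from 9.25 to 7.11. Genes on the opposite strand share 40.7% of the exon bases of SLC5A2 and 16.3% of those of KRT18. RNAs without a poly(A) tail moved with the groups: RN7SK went from 38.6 ± 5.48 to 127 ± 67.7 RPKM, RN7SL1 from 9.43 to 18.3 and RN7SL2 from 4.66 to 12.9. Single circAASS libraries ran from 55.6 to 190 RPKM for RN7SK. Exons of other genes on the same strand cover 100% of the exon bases of RN7SK (RF00100) and of RN7SL1 (AL139099.4). The part of these markers and RNAs in the results above was not tested.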

How the data were processed

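RNA of 6 libraries was sequenced as read pairs after stranded mRNA preparation, per the labels' protocols. The authors deposited RPKM, reads scaled to gene length and library size, 1 column a library; every column was matched by the sample titles. Trimmomatic 0.36, featureCounts, Subread 1.5.1, edgeR 3.12.1 and GRCh38 are named in the submitters' processing notes; for the aligner, the annotation and the use of strand, the choice is not given in the sources used here. Names of 28 genes had become dates and were left out.

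Read numbers were recovered from RPKM using exon lengths of GENCODE 29. For 22385 of 24697 uniquely named genes (90.6%) all 6 values came within 0.02 reads of a whole number; other genes took the smallest length that gave whole reads. The exon lengths of all 10 genes described were the annotated ones. Reads served for the filter (in 3 or more libraries, 10 reads when scaled to the median total, and 15 summed) and for trimmed-mean scaling factors (30% of ratios and 5% of levels trimmed), equal to 1.018, 1.023 and 1.036 for empty vector, then 0.958, 0.971 and 0.996 for circAASS.

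log2(scaled RPKM + 0.1) was tested with limma 3.58.1 (R 4.3.3), trend and robust estimation on, group as the sole term, two-sided, Benjamini-Hochberg adjusted over 19350 genes at 0.05. Fold changes are on this scale and understate those of low genes. Means ± SD are of deposited RPKM (n = 3 each). The steps were tested on simulated data. Alternatives were pseudocounts of 1 and 0.01, no filter, a mean of 1 RPKM as filter, no scaling factors beyond library size, median-of-ratios factors, no trend and no robust estimation, a replicate block, voom on recovered reads, and leaving out each library. Python 3.11 and matplotlib 3.10.9 were used for the rest.

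The genes and lists were chosen with earlier results of these data known. Named by rule were all 10 genes, the paralogs AGO4 and TNRC6C, and from each list the 4 genes with the smallest p in each direction that passed; PRKRA, RAN and PAN3 fall outside the rule and were chosen after their values were seen. LIN28B and SLC22A6 were not analysed here, and LIN28A did not pass the filter. Positions are those of GENCODE 29 on GRCh38.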

Additional observations from a re-analysis of the deposited data

How the results depend on the processing

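Each fold change and count was recomputed under 15 alternatives, 6 of which left out 1 library. DICER1 kept its direction and its call in all of them. DROSHA kept its direction; its call was lost at log2 fold changes of -0.15 with no filter on low values (adjusted p = 0.0714), -0.15 without trend and robust estimation (0.102) and -0.15 with the replicate block (0.081), and at -0.17 to -0.13 in the fits that left out a library. AGO3 passed at 0.25 without trend and robust estimation and at 0.29 with voom on recovered reads, and TARBP2 at -0.23 with library size alone. Directions turned in DGCR8 and TNRC6A: DGCR8 stood at -0.0055 with library size alone and TNRC6A at 0.038 without circAASS library 2. The number of the 10 genes called lower was 1 with no filter, without trend and robust estimation and with the replicate block. Of all genes, 6.10%, 15.7% and 13.9% were called lower in these fits, in that order. When any 1 library was left out, 1 of the 10 was lower, against 9.93% to 13.9% of all genes. The number called higher was 1 without trend and robust estimation (13.3% of all genes) and 1 with voom (19.2%). With no filter 3 cofactors were lower (6.10% of all genes) and 8 silencing and decay genes higher (6.48%). With library size alone 6 silencing and decay genes were higher (11.2% of all genes). When a library was left out, 2 to 5 cofactors were lower, 7 to 10 silencing and decay genes higher, and over all genes 2046 to 2748 higher and 1967 to 2788 lower, the fewest without empty-vector library 2. With library size alone the median log2 fold change of all genes was -0.08 in place of -0.01, and 2159 genes were higher and 4023 lower in place of 3095 and 3151. The causes were not tested.

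Same-numbered libraries of the groups did not deviate together (correlations of their deviations across genes of -0.01, -0.02 and 0.02), so the numbers were not taken as pairs; with the replicate block 28.0% of genes were called in place of 32.3%. Reads of 579 or more a library stand behind each of the 10 genes, and the widest 95% intervals of log2 fold change are those of AGO3 (-0.04 to 0.54) and TNRC6B (-0.12 to 0.40).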
